A study of Mus musculus with 4 samples.

Results

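Gene expression in mouse embryos that lack nucleoredoxin was compared with that in wild-type embryos at embryonic day 9.5 (E9.5). The comparison rests on 2 of the 4 arrays of the series, a dye-swapped pair that was chosen by its stage label alone, and it is described across all genes. On replicate 1 the Nxn-null RNA carried Cy5 and the wild-type RNA Cy3, and on replicate 2 the dyes were exchanged. Both groups were E9.5 embryos from C57BL/6J mice, untreated, with the genotypes NRX -/- and NRX +/+, where NRX is nucleoredoxin, the product of the gene Nxn. The other 2 arrays compared the same genotypes at E11.5 and are used only to show where E9.5 differs. The labels do not say how many embryos entered an RNA, whether the yolk sac was taken off, whether the pair was hybridised with separate RNA extracts, or how the allele was disrupted. The pair was therefore counted as 1 replicate per genotype, each SD is over n = 2 arrays, and no test of the genotype was possible at this stage. In whole-embryo RNA, fewer cells of a type and less RNA per cell cannot be told apart.

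Nucleoredoxin is a thioredoxin-related protein that binds Dishevelled, the cytoplasmic relay of Wnt signals. Wnt ligands act through Frizzled and Lrp receptors and Dishevelled to stabilise beta-catenin, which enters the nucleus and switches on target genes with Tcf/Lef factors. At this stage of mouse development the heart tube has looped and beats, the yolk sac supplies the embryo with nutrients, serum proteins and primitive red cells, and the tailbud is still adding trunk segments. The question, by the title of the series, is whether nucleoredoxin is needed to keep Wnt/beta-catenin signalling going.

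Of 16294 genes or transcripts tested, each represented by its brightest probe, 399 (2.45%) were at least 2-fold lower in Nxn-null RNA on the mean of the arrays with both arrays below 0, and 97 (0.595%) were at least 2-fold higher with both above 0. All ratios below are on the log2 scale, with Nxn-null RNA in the numerator and wild-type RNA in the denominator. On each array separately, 254 genes (1.56%) were at least 2-fold lower and 43 (0.264%) at least 2-fold higher. The median ratio over all genes was 0.02, with quartiles of -0.12 and 0.13, and the ratios of the arrays correlated across genes at 0.53. Genes are not independent replicates. Among the 399 lower genes, 92 were at least 4-fold and 43 at least 8-fold lower, against 15 of the 97 higher genes at 4-fold. Just inside the threshold lay Apoe at -1.001 and Mast4 at 1.005, and just outside it Serpinc1 at -0.9987 and the transcript AK136420 at 0.980.

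**Figure D1:**
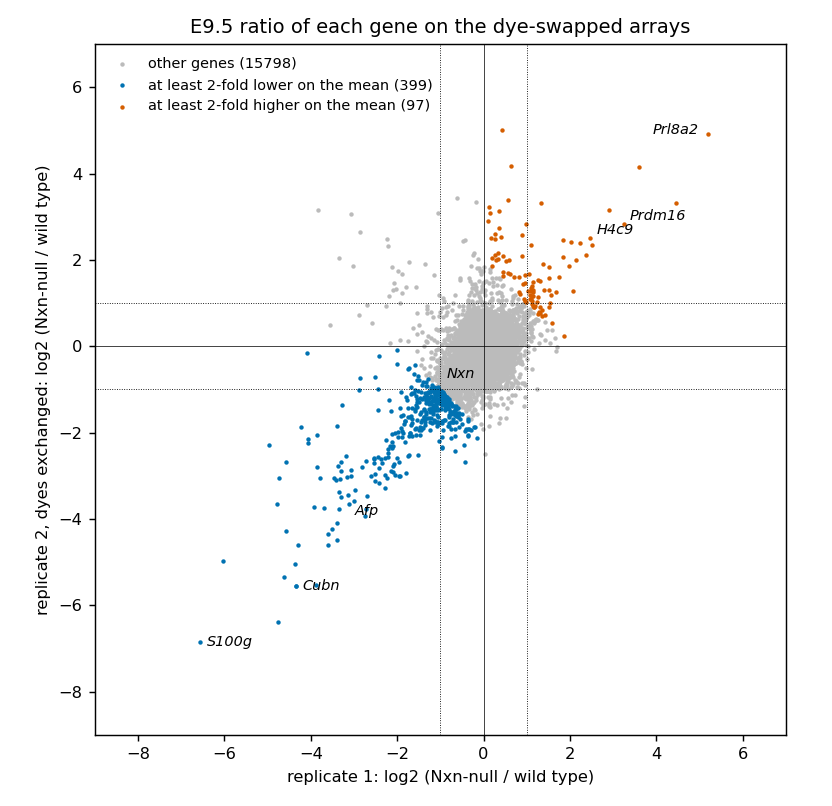
Log2 ratio of Nxn-null over wild-type RNA of each of 16294 genes on replicate 1 (horizontal axis) and replicate 2 with exchanged dyes (vertical axis), with dotted lines at 2-fold. Blue points are the 399 genes at least 2-fold lower and orange points the 97 at least 2-fold higher on the mean. The lower genes reach far down the diagonal to S100g at a mean of -6.70.

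A second rule asked which ratios lay beyond the spread left between arrays once stage and dye were fitted. A limma fit over the 4 arrays of the series, with terms for stage and dye and Benjamini-Hochberg adjustment at 0.05, called 1270 genes lower (7.79%) and 571 higher (3.5%) at E9.5. The fit compares the RNAs that were hybridised and not the genotypes, and its error has 1 residual degree of freedom among arrays. The dye term takes up any gap between the dye-swapped arrays that both stages share. The error left is thus how far that gap differs between stages, and genes whose E9.5 arrays lie apart can be called. Fbp2 was called lower with arrays at -4.09 and -0.15. Without the dye term 298 genes were called lower and 43 higher, so both counts are given below where they differ by much. Of the 399 genes at least 2-fold lower, 384 were called by the fit and 243 without the dye term, and of the 97 higher genes 81 and 30 were.

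Signals near background limit some of these ratios. Of the 399 lower genes, 163 were well above background in Nxn-null RNA on both arrays, 205 on 1 array and 31 on neither. Of the 97 higher genes, the wild-type RNA was well above background on both arrays for 48, on 1 for 31 and on neither for 18. Where a genotype was well above background on neither array the change is given as a bound, the brighter mean over the higher of the dim value and the lowest signal well above background on each array. With normexp background correction (offset 50) and loess in place of the processed signals, which draws dim ratios towards 0, 129 genes were at least 2-fold lower and 15 higher.

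Nxn checked the labels. Its processed signal was 4770 and 5009 in Nxn-null RNA (replicates 1 and 2) and 9892 and 9277 in wild-type RNA. Both Nxn-null values lay below both wild-type values, and the mean log2 ratio was -0.97 ± 0.12 (SD, n = 2 arrays, limma adjusted p = 0.0096). A second, dimmer Nxn probe gave -0.83. The signal of the brighter probe in RNA labelled null was thus 51.0% of that in wild-type RNA, and how the probes lie relative to the disruption is not known here. Of 13 tested genes beside Nxn on its chromosome, 1 was called, Glod4, at -0.76 ± 0.37 (signals 2473 and 3155 against 5016 and 4449), and its call was lost without the dye term. Its E11.5 ratio was -0.73.

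Nucleoredoxin's binding partners stayed close to the rest. The Dishevelled genes Dvl1, Dvl2 and Dvl3 had mean ratios of -0.10 ± 0.08, 0.14 ± 0.55 and 0.20 ± 0.14, and none was called. Among 14 tested genes of this list, which includes Nxn, the only other call was Pfkp, a platelet-type phosphofructokinase, at -0.62 ± 0.29, and it was lost without the dye term. The median of the list was 0.05, against 0.02 over all genes.

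Summed markers lay far apart between the genotypes for visceral endoderm, red cells and trophoblast, and closer together for the other cell types. Summed signals of 11 embryo markers, all of them well above background in every channel, were 23081 and 23851 in Nxn-null and 21801 and 22755 in wild-type RNA. These members went both ways, with mean ratios from -1.69 (Myh6) to 0.58 (Nefm), so the near-equal sums hide differences. The sums of 8 markers of yolk sac visceral endoderm were 12189 and 9362 against 103888 and 107979, so both Nxn-null values lay far below both wild-type values. A sum follows its brightest members, here Afp and Rbp4. Single ratios of this set ran from -4.95 (Cubn) to 0.15 (the brighter Hnf4a probe). The sums of 6 primitive red cell markers, made up mostly of the globins Hbb-bh1, Hbb-y and Hba-x, were 169646 and 169546 against 340529 and 270091. For trophoblast, 3 of 7 listed markers were tested and 2 others with a probe were well above background in no channel. The 3 tested markers summed to 1046 and 1270 in Nxn-null and 393 and 499 in wild-type RNA. The 5 tested decidua markers, which include the decidual hormone gene Prl8a2, summed to 1201 and 1251 against 1124 and 1014. Without Prl8a2 the other 4 lay the other way, at 789 and 748 against 1112 and 997. Macrophage markers gave 453 and 429 against 509 and 591, and endothelial markers 3755 and 3756 against 3841 and 5006. The part of these marker differences in the gene groups that follow was not tested.

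The lowest ratios of the comparison belonged to genes of the yolk sac and of absorptive epithelia. Across 4 lists (endocytosis and absorption, lipoproteins, serum proteins, coagulation and complement) 50 of 110 tested members were at least 2-fold lower, where 2.45% of all genes were. S100g, a vitamin D dependent calcium-binding protein of absorptive cells, had signals of 21.2 and 18.1 in Nxn-null against 2008 and 2073 in wild-type RNA. It had the lowest mean ratio, -6.70 ± 0.20 (limma adjusted p = 0.01), and -4.73 with normexp and loess. Nxn-null RNA was well above background for it on 1 of the arrays.

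The receptor complex of the yolk sac surface was low in 2 of its 3 parts. Cubn encodes cubilin, the endocytic receptor for vitamin B12 with its carrier and for apolipoproteins. Its signals were 114 and 77.8 against 2314 and 3639, a mean ratio of -4.95 ± 0.85 (limma adjusted p = 0.0021). Amn, whose product anchors cubilin in the membrane, had 169 and 128 against 1717 and 1735 (-3.55 ± 0.30). Their partner megalin, Lrp2, differed less, with 907 and 820 against 1221 and 1547 (-0.67 ± 0.34), and its call was lost without the dye term. Megalin is also made in the neural tube, and cubilin and amnionless are made in visceral endoderm. From which tissues these differences came was not tested. The microvillar genes went the same way. Vil1, the actin bundler villin, was at -3.16 ± 0.24 and Pdzk1, a scaffold for transporters, at -3.87 ± 0.52.

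Of the 40 tested endocytic and absorptive genes, 27 were called lower and 1 higher, and 16 lower without the dye term. The exception was Mme, the peptidase neprilysin, at 0.51 ± 0.42. The median of the list was -0.98, against 0.01 for the same genes at E11.5, and with normexp and loess it was -0.64. For 20 of these genes the E9.5 ratio was lower than the E11.5 ratio by the limma test of the difference, a call that 3.47% of all genes had.

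Lipoprotein genes followed the absorptive genes. Apob, the structural protein of large lipoproteins, had 55.8 and 59.8 against 1340 and 1157 (-4.43 ± 0.22, limma adjusted p = 0.0011). The other Apob probes gave -4.77 and -3.24. Apoa1, the main protein of high-density lipoprotein, was at -3.73 ± 0.03, Apoc2, the activator of lipoprotein lipase, at -3.30 ± 0.22, and Apom, a carrier of sphingosine phosphate, at -2.58 ± 0.05. Fabp1, a fatty acid carrier of liver and gut, was at least 4.07-fold lower, with Nxn-null RNA well above background on neither array. In all, 14 of 25 tested lipoprotein genes were called lower and none higher, 9 lower without the dye term, and the median was -0.68. At E11.5 Apob was at -1.03 and Apoa1 at -0.36.

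Serum proteins split. Afp, alpha-fetoprotein, the main serum protein of the embryo, had signals of 9238 and 6595 in Nxn-null RNA against 80596 and 83080 in wild-type RNA. All 4 values are far above background, the genotypes do not overlap, and the mean ratio was -3.39 ± 0.37 (limma adjusted p = 0.0021). Rbp4, the plasma carrier of vitamin A, had 1628 and 1595 against 16461 and 16574 (-3.36 ± 0.03). Ttr, transthyretin, which carries thyroid hormone and Rbp4, was at -3.20 ± 0.18, Trf, transferrin, at -1.55 ± 0.06, and Igfbp1, a binding protein of insulin-like growth factors, at -3.97 ± 0.53. Alb, albumin, which the embryonic liver makes, was at 0.22 ± 0.07 and was not called, and Vtn, vitronectin, was called higher at 0.46 ± 0.02, a call lost without the dye term. Of 20 tested members 8 were called lower (40%, against 7.79% of all genes) and 1 higher (5%, against 3.5%). The list median of -0.33 turned to 0.16 when both genotypes had to be well above background on both arrays, so the median of this list shows no direction.

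Coagulation and complement genes were low as a group, with 15 of 25 tested members called lower, 12 without the dye term, and none higher, at a median of -1.03. Fibrinogen is built from 3 chains. The gamma chain Fgg had 256 and 293 against 2143 and 2334 (-3.03 ± 0.05) and the beta chain Fgb 708 and 698 against 1853 and 2178 (-1.51 ± 0.18). The alpha chain Fga was at least 2.42-fold lower, but its arrays lay apart (-3.29 and -1.36) and it was not called (limma adjusted p = 0.051). Mbl2, a lectin that starts complement activation, was at -4.70 ± 0.47, and Cfi, the protease that inactivates C3b, at -4.10 ± 0.71.

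**Figure D2:**
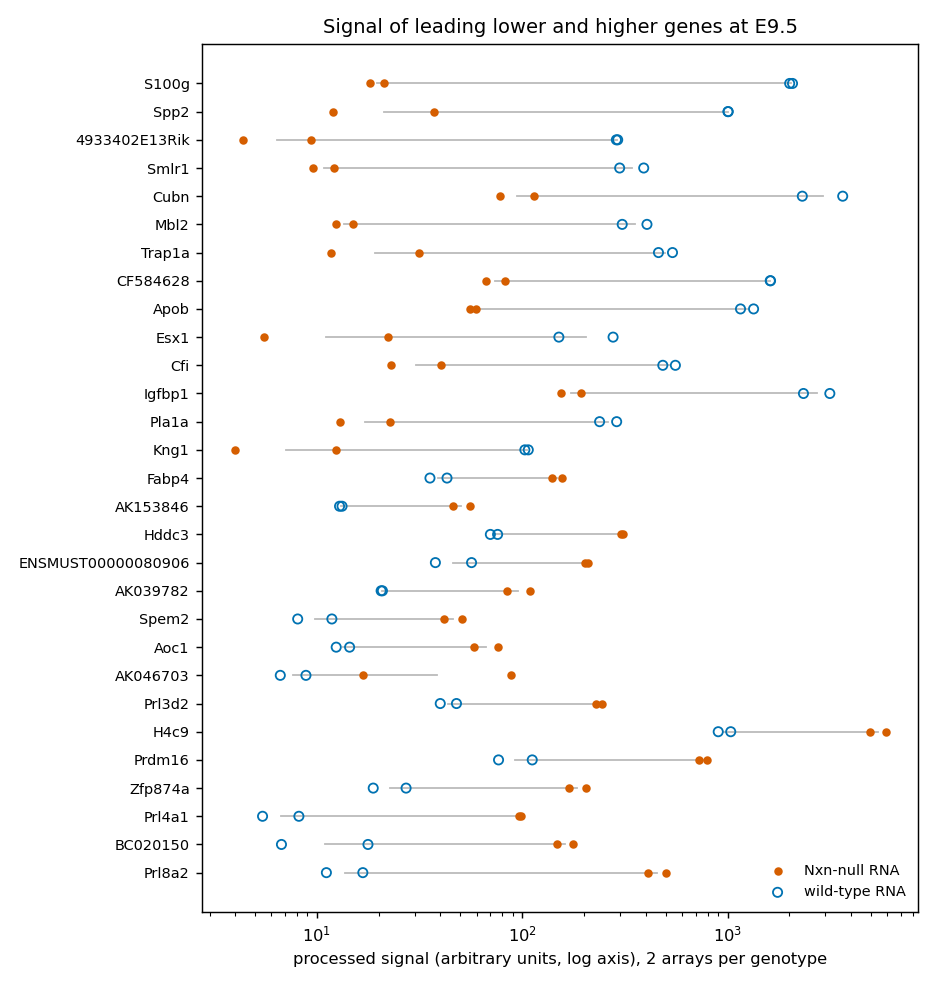
Processed signal on a log axis of 14 genes with the lowest and 15 with the highest mean ratios among those at least 2-fold apart on each array. Filled points are Nxn-null and open points wild-type RNA, 1 point per array, and grey lines join the geometric means. In each row the points of the genotypes do not overlap, which the choice of genes by ratio favours.

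The transcription factors that direct endoderm genes were mixed, with a list median of -0.16. Of 33 tested, 6 were called lower (18.2%, against 7.79% of all genes) and 1 higher (3.03%, against 3.5%). Without the dye term 3 were called lower. Hnf4a, a master regulator of visceral endoderm and liver, had 56.1 and 64.7 against 40.7 and 73.1 (0.15 ± 0.45), and here the genotypes overlap. A second, dimmer Hnf4a probe gave -2.84 and -1.97, so the probes disagree and no direction is given for this gene. Gata4 was at 0.39 ± 0.10 and Gata6 at -0.59 ± 0.08, the latter called only with the dye term. Rhox5, an X-linked homeobox gene of extraembryonic tissue, was at -3.10 ± 0.08, from signals of 791 and 829 against 7035 and 6825. Nr5a2, a nuclear receptor of liver and pluripotent cells, was higher at 1.07 ± 0.48, a call lost without the dye term. The HNF4 motif CAAAGTCCA was searched on both strands of RefSeq promoters, and a gene counts where any of its promoters holds the letters. It was found for 1 of 39 yolk sac genes (2.56%) at least 2-fold lower. It was found for 0.468% of all tested genes and for 0.555% of all genes with a promoter.

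Heart muscle genes formed the other large group among the lower genes. Of 39 tested genes for the sarcomere and calcium handling, 35 were called lower by limma and none higher, 26 were called lower without the dye term, and 24 were at least 2-fold lower. Myl2, the regulatory light chain of the ventricle, had 223 and 214 against 3374 and 2848 (-3.83 ± 0.13, limma adjusted p = 0.0011). The heavy chain Myh7 had 6525 and 5634 against 33517 and 36600 (-2.53 ± 0.24), and a second Myh7 probe gave -2.44. The faster heavy chain Myh6 was at -1.69 ± 0.34. In each of these genes both Nxn-null signals lay below both wild-type signals.

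Other parts of the contractile machine moved with them. Mybpc3, a thick filament protein, was at -2.08 ± 0.06, Ttn, the spring protein titin, at -2.04 ± 0.09 (its other probes gave -2.34 and -0.76) and Cox6a2, the heart and muscle form of a respiratory chain subunit, at -1.70 ± 0.07. Pln, phospholamban, which restrains the calcium pump, was at least 3.38-fold lower, a call lost without the dye term. Sln, sarcolipin, an atrial relative of phospholamban, was at 0.05 ± 0.23 and was not called. Over the list 37 of 39 ratios were below 0 on both arrays, a pattern that 25.5% of all genes had. Their median was -1.15 here, against 0.13 for the same genes at E11.5, and 31 of the 39 were lower at E9.5 than at E11.5 by the limma test of the difference.

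Regulators of the heart differed less than its muscle proteins. Nppa and Nppb, the natriuretic peptide genes of working heart muscle, were at -2.18 ± 0.07 and -1.76 ± 0.43. Nkx2-5, the early cardiac homeobox factor, had 239 and 190 against 386 and 398 (-0.88 ± 0.26, limma adjusted p = 0.008), and was not called without the dye term. Tbx5 had 591 and 496 against 592 and 462 (0.05 ± 0.07), and Hand2 was at 0.05 ± 0.15. Shox2, a factor of the pacemaker region, and Myocd, a coactivator of muscle genes, were higher at 0.60 ± 0.38 and 0.65 ± 0.47, both only with the dye term. In all, 5 of 28 cardiac regulators and peptides were called lower (17.9%, against 7.79% of all genes) and 2 higher (7.14%, against 3.5%). Without the dye term 2 were called lower, and the median was -0.07. Of 20 tested skeletal muscle genes 5 (25%) were called lower and 2 (10%) higher. The lower ones encode sarcomere proteins, namely the myosin heavy chain Myh8 (-1.60 ± 0.21), the light chain Myl1 (-1.29 ± 0.05), the actin Acta1 (-1.14 ± 0.20), the troponin Tnni2 (-0.72 ± 0.04) and Ttn, which is also in the heart list, and Tnni2 was not called without the dye term. The skeletal determination factors Myod1 and Myog were at 0.58 ± 0.34 and 0.18 ± 0.10, and Myod1 was called higher only with the dye term. The letters AGATAA, bound by GATA factors and searched on both strands, were found in promoters of 7 of 22 heart muscle genes (31.8%) at least 2-fold lower. They were found for 8.25% of all tested genes, for 12.7% of all genes with a promoter, and for 17 of 56 genes (30.4%) at least 2-fold higher. A match describes letters in a window and does not show that a factor binds there. The first of 2 listed promoters of Myl2, the lowest member with a signal well above background in both genotypes, is shown as an example (chr5:122092474-122092773, plus strand). Promoters printed here are from RefSeq, build GRCm38.p6, run from 250 bases before to 50 bases after the start of the gene, read 5′ to 3′ on the gene's strand, and have the GATA letters in capitals.
Myl2: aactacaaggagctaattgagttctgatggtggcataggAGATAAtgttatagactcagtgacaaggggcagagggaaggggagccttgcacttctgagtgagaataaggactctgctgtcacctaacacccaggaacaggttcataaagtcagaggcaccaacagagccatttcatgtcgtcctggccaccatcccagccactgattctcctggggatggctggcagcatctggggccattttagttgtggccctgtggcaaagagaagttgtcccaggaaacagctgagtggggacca

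Red cell genes were lower by smaller amounts. Over 4 lists (globins, erythroid factors, red cell membrane, haem and iron) 25 of 72 tested genes were called lower by limma, where 7.79% of all genes were. None was called higher, and 3 were called lower without the dye term. Hbb-bh1, an embryonic beta-like globin, had 87132 and 75871 against 156604 and 144438 (-0.89 ± 0.06). Hbb-y, the other main one, was at -1.14 ± 0.50 and the embryonic alpha-like globin Hba-x at -0.35 ± 0.59, with arrays at -0.76 and 0.07, and was not called. Klf1, the factor that drives globin genes, had 238 and 223 against 508 and 458 (-1.07 ± 0.04, limma adjusted p = 0.0056). Gata1, by contrast in size, was at -0.15 ± 0.17 and was not called.

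Globin and red cell membrane genes had medians below 0 at both stages. Globins had a median of -0.54 here and of -1.07 at E11.5, and red cell membrane genes medians of -0.36 and -0.50. The other lists lay nearer 0, with medians of -0.02 and -0.09 for erythroid factors and -0.16 and -0.11 for haem and iron. Of the 72 genes, 1 differed between the stages by the limma test of the difference. Over all genes 3.47% had a lower and 1.29% a higher ratio at E9.5 by this test. A missing call does not show that the stages are alike. Epor, the erythropoietin receptor, was at -0.64 ± 0.01 from 790 and 865 against 1232 and 1357, and Alas2, the first enzyme of haem synthesis in red cells, at -0.60 ± 0.10. The Epor promoter (chr9:21963527-21963826, minus strand, GRCm38.p6) is shown in the same way, with the GATA letters on the opposite strand. It was chosen because 7 of 17 red cell genes (41.2%) called lower held them in a promoter. They were found for 8.25% of all tested genes and for 30.4% of genes at least 2-fold higher. The letters CCACACCC (CACCC box), also searched, were found for 0 of the 17 and for 4.38% of all tested genes.
Epor: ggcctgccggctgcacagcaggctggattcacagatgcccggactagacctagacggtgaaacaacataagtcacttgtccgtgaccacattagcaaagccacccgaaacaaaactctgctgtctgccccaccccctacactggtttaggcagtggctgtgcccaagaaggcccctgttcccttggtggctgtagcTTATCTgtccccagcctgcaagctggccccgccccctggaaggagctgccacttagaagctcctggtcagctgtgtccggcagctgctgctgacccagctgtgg

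Tailbud genes were split. Tbx6, a factor of presomitic mesoderm, had 73.1 and 69.5 against 446 and 556 (-2.80 ± 0.28, limma adjusted p = 0.0026), and T, brachyury, the defining factor of the tailbud, 21.1 and 20.9 against 87.4 and 84.3 (-2.03 ± 0.03). Cdx2, which acts in tailbud, hindgut and trophoblast, had 43.2 and 38 against 424 and 427 (-3.39 ± 0.14). All 3 were lower at E9.5 than at E11.5 by the limma test of the difference. Wnt3a, the Wnt ligand of the tailbud and of the dorsal neural tube, was higher, with 567 and 631 against 374 and 385 (0.66 ± 0.08), a call lost without the dye term. Fgf8 was at 0.18 ± 0.09 and Sp5 at -0.13 ± 0.21. Over 28 tested tailbud and presomitic genes 5 were called lower (17.9%, against 7.79% of all genes) and 2 higher (7.14%, against 3.5%). Without the dye term 3 were called lower and none higher, and the median was -0.06. Of 29 Notch and segmentation genes 1 (3.45%) was called in each direction.

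Hox genes, whose paralogue number follows position along the body axis, differed by number. Medians of paralogue groups 1 to 5 lay between -0.32 and 0.22, those of groups 6 to 9 between -0.86 and -0.24, and those of groups 10, 11 and 13 at -1.10, -0.97 and -1.86. All 10 tested genes of groups 9 to 13 were below 0 on both arrays, and 8 were called lower, and 7 without the dye term. Hoxc10 was at least 4.61-fold lower, Hoxd13 had 88 and 83.3 against 288 and 336 (-1.86 ± 0.22), and Hoxa10 319 and 337 against 679 and 723 (-1.10 ± 0.01). Hoxb9 was at -0.14 ± 0.01 and Hoxa9 at -0.29 ± 0.05, and neither was called. A second, slightly dimmer Hoxb9 probe gave -0.48. In groups 5 to 8, 4 of 11 genes (36.4%, against 7.79% of all genes) were called lower and Hoxc5 higher. In groups 1 to 4 Hoxd1 was the 1 call of 12 genes (8.33%). None of these calls held without the dye term. At E11.5 the median of groups 9 to 13 was -0.02, and 7 of the 10 were lower at E9.5 than at E11.5.

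**Figure D3:**
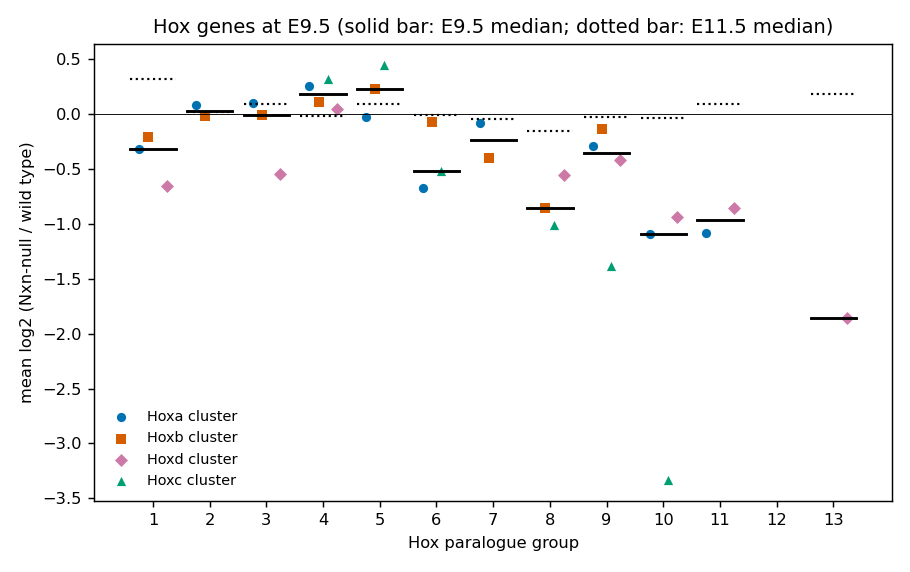
Mean log2 ratio of Nxn-null over wild-type RNA of each tested Hox gene at E9.5 by paralogue group, with a marker for each cluster. Solid bars are E9.5 medians and dotted bars E11.5 medians of a group. The E9.5 medians lie between -0.32 and 0.22 up to group 5 and reach -1.86 in group 13, which holds 1 tested gene.

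Among limb genes, Tbx4 and Pitx1, which specify the hindlimb, were called lower. Tbx4 was at least 2.12-fold lower, and Pitx1 had 2155 and 1859 against 3619 and 5490 (-1.16 ± 0.58), and both calls were lost without the dye term. Tbx5, which specifies the forelimb, was at 0.05 ± 0.07, and Fgf10, which starts outgrowth of both, at 0.18 ± 0.19. The difference between hindlimb and forelimb genes was not tested. Over 30 limb genes 5 were called lower (16.7%, against 7.79% of all genes), 3 of them Hox genes, and 2 higher.

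Neural genes were slightly higher. Of 46 tested neuronal genes 33 were above 0 on both arrays, a pattern that 28% of all genes had. Of the 46, 16 were called higher (34.8%, against 3.5% of all genes) and none lower. All 16 calls were lost without the dye term. Tubb3, a neuronal tubulin, had 5255 and 5683 against 3762 and 3700 (0.55 ± 0.10) and Nefm, a neurofilament, 3612 and 3448 against 2430 and 2308 (0.58 ± 0.01). Cntn2, an adhesion protein of early axons, was at 0.71 ± 0.14. The list median was 0.31, and 0.02 at E11.5. Neural tube patterning and proneural genes had a median of 0.25, with 7 of 47 (14.9%) called higher and none lower. Among the 7 was Olig3, a factor of the dorsal neural tube, at 0.57 ± 0.06. Of 37 neural crest and craniofacial genes 8 (21.6%) were called higher and 2 lower (5.41%, against 7.79% of all genes). No gene of these 3 lists was called higher without the dye term.

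**Figure D4:**
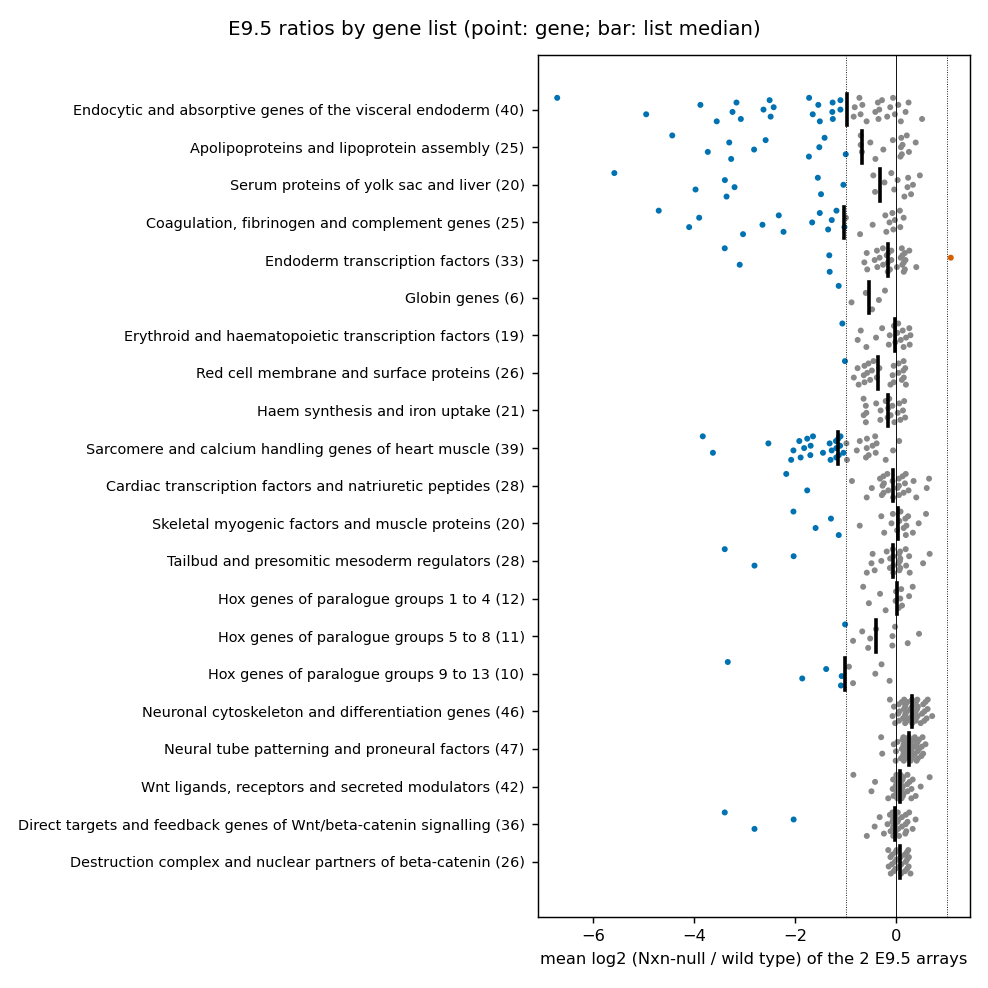
Mean log2 ratio at E9.5 of each tested member of 21 gene lists (points), with the number of tested members in brackets and a black bar at the list median. Blue points are at most -1 and orange points at least 1. Heart muscle, yolk sac and posterior Hox lists lie to the left, neuronal genes lie to the right of 0, and the medians of the Wnt lists lie near 0.

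Medians of the Wnt pathway lists lay near 0, while 3 targets made in the tailbud were at least 2-fold lower. Axin2, a direct target and feedback inhibitor, had 973 and 944 against 922 and 1046 (-0.04 ± 0.16), and Lef1 2853 and 3563 against 2995 and 3798 (-0.08 ± 0.02). Neither was called, and for Axin2 the genotypes overlap. Of 36 direct targets and feedback genes 4 were called lower (T, Cdx2, Tbx6 and Msgn1, all of them tailbud genes and 3 of them already described) and 1 higher (Ephb2, 0.38 ± 0.08). At least 2-fold lower were 3 of the 36 (8.33%, against 2.45% of all genes), and 14 (38.9%, against 25.5%) were below 0 on both arrays. Called lower by limma were 11.1% of the targets, against 7.79% of all genes. The median of the targets was -0.03. Msgn1, at -0.59 ± 0.58, and Ephb2 were not called without the dye term.

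Among 42 ligands, receptors and secreted modulators 2 were called lower, Wnt2 at -0.85 ± 0.35 and the coreceptor Lrp5 at -0.42 ± 0.09, and 2 higher, Wnt3a and Wnt7b (0.48 ± 0.09). Each pair is 4.76% of the list, where 7.79% of all genes were called lower and 3.5% higher. None of these 4 calls held without the dye term. Of 26 genes of the destruction complex and the nuclear partners of beta-catenin none was called in either direction by limma with or without the dye term, and beta-catenin itself, Ctnnb1, was at 0.06 ± 0.26. A second, dimmer Ctnnb1 probe lay at -0.58 and -0.94 on the arrays, so the probes disagree. The letters CTTTGAT, bound by Tcf/Lef factors, were found in promoters of 8 of 192 genes (4.17%) at least 2-fold lower. They were found for 3.06% of all tested genes and for 4.29% of all genes with a promoter. Of 39 yolk sac genes at least 2-fold lower, 4 (10.3%) held them in a promoter.

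Other pathways differed in how many genes were called, where 7.79% of all genes were called lower and 3.5% higher. Hedgehog genes gave 1 higher of 19 and BMP genes 2 higher of 31. FGF genes gave 3 lower of 26, with Klb, a coreceptor of endocrine FGFs, at -1.71 ± 0.32. Redox genes related to Nxn gave 3 lower of 49, all of them glutathione transferases, with Gsta3 at -1.32 ± 0.02 and Gstm1 at -0.86 ± 0.18. Ribosomal protein genes gave no call of 42, at a median of 0.01. Of 28 genes for glycolysis and its reverse 7 (25%) were called lower, 2 without the dye term, among them Fbp1 (-2.97 ± 0.14), a liver-type enzyme of sugar synthesis. Hypoxia response genes had 4 lower (12.9%) and 1 higher of 31, with Bnip3 at -0.72 ± 0.02. Among 31 imprinted genes 7 (22.6%) were called lower and 1 higher, and 4 lower without the dye term. Phlda2, which limits placental growth, had 347 and 315 against 1484 and 2146 (-2.43 ± 0.48), and its neighbour Slc22a18 was at -1.26 ± 0.27, but a second, dimmer Slc22a18 probe was at 0.08. Of the genes named here, Gstm1 and Bnip3 were not called without the dye term. Endothelial genes had 4 lower of 40, with Lyve1, a marker of lymphatic and yolk sac endothelium, at -1.60 ± 0.49.

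The highest ratios belonged partly to hormones of the pregnant uterus and the placenta. Prl8a2, a prolactin-family hormone of the decidua, had 411 and 504 in Nxn-null against 11.1 and 16.7 in wild-type RNA. Since wild-type RNA was well above background for it on neither array, the difference is a bound of at least 22.3-fold (limma adjusted p = 0.0011). Prl4a1 was at least 5.45-fold higher, a call lost without the dye term. Prl3d1, placental lactogen of trophoblast giant cells, had 562 and 565 against 190 and 250 (1.37 ± 0.27), and its near copy Prl3d2 was at 2.44 ± 0.12 but was not called. Rhox9 and Rhox6, homeobox genes of trophoblast, were at 1.41 ± 0.16 and 1.30 ± 0.49, and Rhox6 was not called. Of 47 listed placental genes 17 were tested. Members dim in wild-type RNA entered only through Nxn-null RNA, so the shares called partly follow from the filter. Called higher were 4 (23.5%, against 3.5% of all genes) and lower 3 (17.6%, against 7.79%). The lowest member of this list was Cdx2, at -3.39, so its genes went both ways. Of 20 decidual genes 5 (25%) were called in each direction. Without the dye term 1 placental gene and 2 decidual genes were called in each direction. Members of the prolactin and Rhox families are close copies, so a probe may read more than 1 of them.

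Other leading genes had no common list. Prdm16, a zinc finger factor of stem cells and brown fat, had 727 and 792 against 76.7 and 112 (3.03 ± 0.30, limma adjusted p = 0.0028). H4c9, a histone H4 gene, had 4964 and 5907 against 901 and 1037 (2.49 ± 0.03), while the other 26 tested histone genes gave no call higher and 2 lower. Fabp4, a fatty acid carrier of fat and endothelium, was at 1.92 ± 0.08, and Zfp874a was at least 8.20-fold higher. Hddc3 was higher at both stages, at 2.07 ± 0.10 and, at E11.5, 1.81. In each of these the Nxn-null signals on both arrays lay above both wild-type signals.

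Ratios at E9.5 were also compared with those at E11.5. By the limma test of the difference, 565 genes (3.47%) had a lower and 211 (1.29%) a higher ratio at E9.5, and without the dye term 107 genes differed. Of the 399 genes at least 2-fold lower at E9.5, 250 differed from E11.5 and 22 were also at least 2-fold lower there, and their median E11.5 ratio was -0.17. Of the 97 higher genes 53 differed and 5 were also at least 2-fold higher, at a median of -0.12. The share of all genes at least 2-fold apart at E11.5 is not given, so these counts have no rate beside them. The genes were chosen for their size at E9.5, which favours a smaller ratio at another stage. Some were dim at E11.5, as S100g, for which neither genotype was well above background on an E11.5 array. At E11.5 the same fit called 190 genes lower (1.17%) and 132 higher (0.81%). The stage means correlated across genes at 0.15. Xist, made only in cells with an inactive X chromosome, was at -0.41 ± 0.37 at E9.5, with signals of 5221 and 5277 against 5783 and 8417, and at 8.82 at E11.5. It was well above background in both genotypes at E9.5. Y-linked genes such as Ddx3y and Uty had no kept probe. The part of the E11.5 difference in Xist, and of embryo sex, in the stage comparison was not tested.

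**Figure D5:**
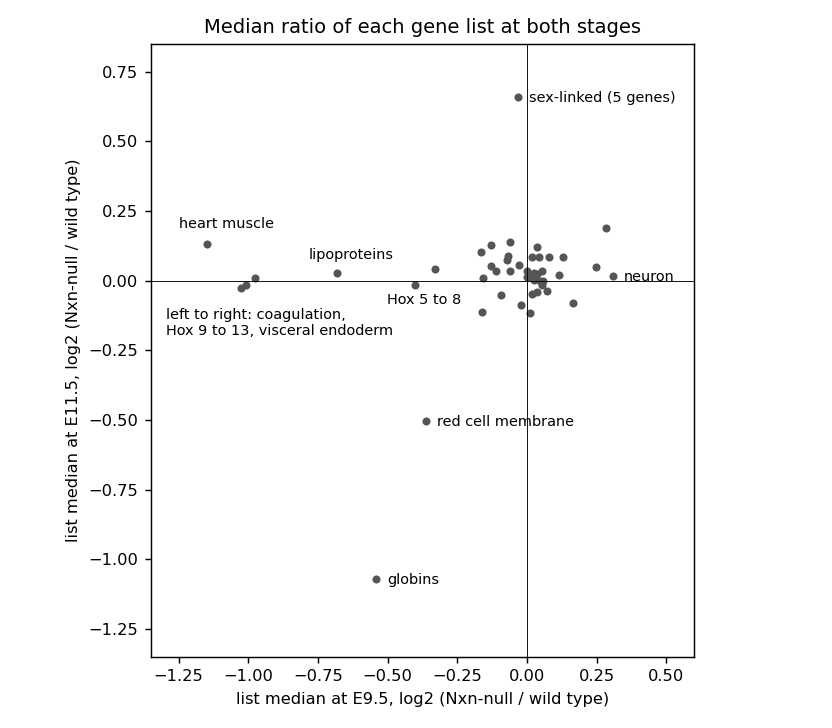
Median log2 ratio of Nxn-null over wild-type RNA of each of 47 gene lists at E9.5 (horizontal axis) and E11.5 (vertical axis), 1 point per list. Heart muscle lies at -1.15 and 0.13 and posterior Hox genes at -1.01 and -0.02, while globins lie at -0.54 and -1.07 and the 5 tested sex-linked genes at -0.03 and 0.66.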

How the data were processed

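Two-colour Agilent whole mouse genome arrays were hybridised with cRNA amplified from 500 ng of total RNA with an oligo-dT primer, per the labels' protocols. The deposited scanner files hold spot intensity for each channel, background-subtracted and dye-normalised by linear and lowess steps in Feature Extraction (version 9.1.3.1 per the file headers, 9.5.3.1 per the submitters' processing notes). They also hold, per the file headers, a log10 ratio of red over green. The deposited values of the series equal log10 of the Nxn-null over wild-type processed signals within 1e-04 in at least 99.995% of 40929 probes with 1 spot, with medians of -0.0137 and 0.0408 at E9.5, so their scale and direction are known and they were not centred further. No genome build is given in the sources used here.

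From the intensities, spots of a probe were averaged, the log2 ratio of processed signals was turned to Nxn-null over wild type on both arrays, and the arrays were averaged. Of 41174 gene probes, 302 with an outlier mark were left out and 23625 were kept because 1 genotype was well above background on both E9.5 arrays. The brightest kept probe stood for a gene. Of 16294 genes 13707 had a current symbol, and in 2327 of 5379 genes with several probes these differed in the sign of the ratio. Probe names were updated with RefSeq tables of GRCm38.p6 through the accession (22951 probes), the symbol (6659) or a former symbol (3109), and the remaining 8455 carry the files' own names. Between 51.5% and 69.7% of gene probes were well above background in a channel, 0 to 7 spots per array were saturated, and all arrays carry 1 scan time. The number of arrays limits the precision.

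limma 3.58.1 (R 4.3.3) was fitted to the 4 arrays with stage and dye terms (prior degrees of freedom 3.15), and p-values were adjusted over all 16294 genes by the Benjamini-Hochberg method. P-values measure only the spread left between these arrays after the stage and dye terms, which may be technical. That spread leaves out a gap between dye-swapped arrays shared by both stages. Replicate numbers were given in accession order and coincide with the dye orientation. Across stages, arrays with the same dye orientation correlated at 0.31 and 0.32, while those with opposite orientation gave -0.05 and -0.14. The procedure was tested on simulated data, where more of its calls were false than the adjusted threshold allows, so calls near the threshold are uncertain. Figures were drawn with matplotlib under Python.

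The genes named are the 15 lowest and 15 highest among those at least 2-fold apart on each array, in each of 47 lists the first 3 members and up to 6 of largest size with both arrays in 1 direction, Nxn, Axin2 and Xist, and members whose probes disagree or whose value turns with a setting. The lists, their members and the motifs were chosen with earlier results of these data known, so no list is independent evidence of its direction. Some results within this rule are not reported here.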

Additional observations from a re-analysis of the deposited data

Results flagged for a closer look

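For 24 of the genes with the lowest and highest E9.5 ratios, the limma test of the difference separated the E9.5 ratio from the E11.5 ratio (adjusted p between 0.0016 and 0.043). These genes were chosen for their size at E9.5, which favours a difference from another stage, and values are E9.5 minus E11.5 on the log2 scale.

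Among genes well above background in wild-type RNA at both stages, the yolk sac and serum genes differed by -4.705 (Cubn), -5.445 (Spp2), -3.401 (Apob), -3.946 (Cfi), -3.407 (Igfbp1), -3.804 (Kng1, for which Nxn-null RNA was well above background on neither E9.5 array) and, for the transcript CF584628, -4.529. Smlr1 differed by -5.112 and Pla1a by -3.659, each well above background in wild-type RNA on 1 of the E11.5 arrays. For S100g (-6.535), 4933402E13Rik (-5.354), Trap1a (-4.525) and Esx1 (-4.054) neither genotype was well above background on an E11.5 array, so their E11.5 ratios carry no measured level and these differences rest on E9.5. For 4933402E13Rik and Esx1, as for Kng1, the E9.5 Nxn-null level was not measured above background, so these sizes are uncertain.

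The genes higher at E9.5 differed by 3.049 (Prdm16), 2.359 (H4c9), 2.342 (Fabp4), 2.092 (the transcript ENSMUST00000080906), 2.063 (Zfp874a) and 1.404 (the transcript AK046703). For Zfp874a and AK046703 wild-type RNA was well above background on neither E9.5 array, so these sizes are uncertain too. In a second set the ratio turned between stages. BC020150 went from 3.89 (E9.5) to -4.28 (E11.5), a difference of 8.163, and Prl8a2 from 5.06 to -2.95 (8.006). Spem2 went from 2.24 to -2.65 (4.895), Aoc1 from 2.31 to -1.65 (3.959) and the transcript AK039782 from 2.21 to -1.14 (3.35). For Prl8a2, Spem2 and Aoc1 the E9.5 wild-type and the E11.5 Nxn-null RNA were on no array well above background, so the sizes are uncertain. BC020150 was well above background in wild-type RNA on 1 E9.5 array and in Nxn-null RNA on 1 E11.5 array. AK039782 was so in wild-type RNA on 1 array of each stage and in Nxn-null RNA on neither E11.5 array. Its E11.5 ratio was not called (limma adjusted p = 0.058). The sizes of both are uncertain too. Prl8a2 and Aoc1 are genes of the decidua, and how much maternal tissue each RNA held was not tested.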

How the results depend on the processing

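The direction of the split, with more genes lower than higher, held under each setting run for 2-fold changes. The counts of genes at least 2-fold higher and lower (97 and 399) were 15 and 129 with normexp and loess, 48 and 163 when both genotypes had to be well above background, and 415 and 495 with no filter on dim probes. They were within 1.5 times the main counts with median centring (94 and 410), the mean of all probes (92 and 392), the Feature Extraction log ratio (97 and 399) and a looser reading of the filter chosen after seeing the data (117 and 425). On a single E9.5 array they ranged from 106 to 186 higher and from 379 to 550 lower, with 186 and 550 on replicate 2 alone.

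The limma counts depend far more on the model. No paired analysis beyond the dye term was possible because the replicate numbers are the dye orientations, and the dye term is that replicate block. Without the replicate block the counts of 571 higher, 1270 lower and 776 that differ between stages became 43, 298 and 107. With the E9.5 arrays alone they were 53 and 303, with 1968 genes at an unadjusted p under 0.05. With normexp and loess they were 1701, 2622 and 2387, and with both genotypes well above background 1224 higher and 1290 that differ (1312 lower). Leaving out each array in turn, with no dye term, gave 11 to 53 higher, 91 to 303 lower and 25 to 94 that differ. The lone array left at a stage is assumed there to vary like the others. Trend and robust moderation gave 460, 1379 and 1110.

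None of the 94 named genes at least 2-fold apart changed sign under a setting run. The 3118 pairs of named gene and setting run cover all 353 named genes, but changes of sign were counted only for the 94. Some settings could not show a change. The 2-fold rule requires both arrays on the same side of 0, so either array alone keeps the sign. The Feature Extraction log ratio is a ratio of the same processed signals. These settings therefore do not test the sign. Of the 10 list medians at least 0.3 from 0, that of serum proteins turned, to 0.158 with both genotypes well above background, where fewer of its genes were tested. Medians closer to 0 crossed it under several settings and show no direction.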

Other observations

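The gene names in this section were chosen after their values were seen. Of the 399 genes at least 2-fold lower, 292 were in none of the 47 lists, and 149 of these have a current symbol. Some encode transporters, and 11 of the 292 are solute carriers. Of all 254 tested solute carrier genes 16 (6.3%), 5 of them in a list, were at least 2-fold lower and none higher, where 1.87% and 0.503% of all genes with a current symbol were. Slc39a4, an intestinal zinc importer, had signals of 305 and 288 in Nxn-null against 1423 and 1716 in wild-type RNA (-2.40 ± 0.25). Slc23a1, a vitamin C transporter, was at -2.02 ± 0.72, and its relative Slc23a3 at -3.74 ± 0.50. Slc47a1, an exporter of organic cations, was at -1.86 ± 0.22. The transporter Abcc2 of bile canaliculi was at least 2.69-fold lower, with Nxn-null RNA well above background on neither E9.5 array, and its limma call was lost without the dye term.

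Muscle genes outside the heart list were also among them. Trdn, triadin of the calcium release complex, was at -2.52 ± 0.54, Mlip, a lamin-interacting muscle protein, at -2.01 ± 0.28, Cav3, muscle caveolin, at -1.49 ± 0.06, Myo18b, a sarcomere-associated myosin, at -1.36 ± 0.14 and Lrrc10, a cardiac leucine-rich repeat protein, at -1.27 ± 0.01. Each was called lower by limma and lay between -0.05 and 0.37 at E11.5.

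Of 8 tested prolactin-family genes 7 were at least 2-fold higher at E9.5, and the family median was 1.31. The exception was Prl3b1, placental lactogen of later pregnancy, at 0.18, with signals of 318 and 311 against 265 and 290. Several members are near copies of each other, so the 7 are not independent. A gene was tested only where 1 genotype was well above background on both arrays. Prl8a2 and Prl4a1 passed through Nxn-null RNA alone, and other members, among them Prl5a1 and Prl7a2, had no kept probe. The share and the median therefore partly follow from this filter and show no direction for the family.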
